A study of Mus musculus with 6 samples.

Results

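The mouse Igk locus, which encodes the kappa light chain of the B-cell receptor, was examined here as a set of bin pairs in 6 in situ Hi-C libraries of cultured B-cell progenitors. Its members were all pairs among the bins of about 100 kb that overlapped chromosome 6 from 67555497 to 70726966 in the mm10 build, from Igkv2-137 to Igkc, with 500 kb on either side as flank. The locus held 33 bins and 561 bin pairs, and with its flanks 43 bins and 946 bin pairs. Of the 561 pairs, 454 had enough reads to be tested. With the flanks 575 of the 946 did, among 431401 bin pairs tested over the autosomes. The pairs not tested lay 6 bins or more apart, so the counts of tested pairs below do not describe all members.

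Erg KO progenitors carried Rag1CreT/+;Erg fl/fl and came from 1 female (replicate 1) and 1 male (replicate 2). The CreT control carried Rag1CreT/+ with both libraries female, and the Erg fl/fl control carried Rag1Cre+/+;Erg fl/fl with 1 female (replicate 1) and 1 male (replicate 2). Erg KO and CreT cells thus shared the Cre allele, and Erg KO and Erg fl/fl cells the floxed Erg alleles. The strain was labelled C56BL/6. In every group lineage-negative bone marrow was grown for 8 days on OP9 stroma with SCF, IL7 and FL, and B220+ cells were then selected. Rag1Cre is active in lymphopoiesis from the common lymphoid progenitor, and the study describes the Erg KO cells as pre-proB and the controls as proB cells, so loss of Erg and the stage of the cells cannot be told apart. Mice of the study were 6 to 18 weeks old, with no age given for single libraries, and any pooling was not given in the sources used here.

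V(D)J recombination joins a variable (V) and a joining (J) segment through recombination signal sequences, each a heptamer and a nonamer around a spacer, which are bound by the RAG1 and RAG2 recombinase. At Igk a long array of V segments lies on one side of a short J cluster and the constant exon Igkc, and V segments that point the same way as the J segments join by deletion while those that point the other way join by inversion. The kappa light chain is normally rearranged at the pre-B stage, after the heavy chain. Enhancers between the J segments and Igkc and downstream of Igkc lie in the same region as the joining point, and the V array must come near it in space before a join can form. Hi-C counts read pairs that join 2 places of the genome, and thus measures how often those places are in contact.

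The V array was divided into 3 sections of equal length, called distal, middle and proximal by their distance from Igkc. The distal section held 11 bins and 49 V segments, 42 on the plus strand and 7 on the minus strand. The middle section held 11 bins and 69 V segments, 23 plus and 46 minus, and the proximal section held 10 bins and 57 V segments, 16 plus and 41 minus. A single bin, chr6:70699962-70799850, held Igkj1 to Igkj5 and Igkc with Igkv3-1 and the non-immunoglobulin gene Rpia, and is called the Igkc end. The flank beside the V end held Gadd45a, Serbp1, Il12rb2 and Il23r, and the flank beside the Igkc end held Eif2ak3, Foxi3, Tex37, Fabp1, Thnsl2 and Krcc1. Median GC content of the bins was 38.8% in the distal, 37.8% in the middle and 39.7% in the proximal section, and 43.3% in the Igkc end, against a median of 41.45% over the autosomal bins kept.

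The stretches at the place of the recombination signals are shown for the V bins whose contacts with the Igkc end are described first. They are also shown for 3 of the J segments, and whether each stretch works as a signal was not tested. Each V line below starts at the base after the segment and is printed on the segment's own strand, and each J line ends at the base before the segment on the plus strand (RefSeq genome, GRCm38.p6, the mm10 build). Capitals mark the heptamer beside the segment and the 9 bases at the place of the nonamer, with 12 bases between them for V and 23 for J. The 4 V segments were Igkv9-129 at chr6:67840267-67840294 and Igkv11-125 at chr6:67914053-67914080 on the plus strand, and Igkv4-50 at chr6:69700739-69700766 and Igkv12-38 at chr6:69943158-69943185 on the minus strand. The J signals lay at chr6:70722523-70722561, chr6:70722877-70722915 and chr6:70723184-70723222. All 4 V segments printed had the heptamer CACAGTG, and 3 of them had the same nonamer. Of the J segments printed only Igkj1 had its reverse complement, CACTGTG, which Igkj4 and Igkj5, not printed, had too. Igkj2 had CAGTGTG and Igkj3 had CACTGTA in its place.
Igkv9-129: CACAGTGatacaaatcacaACATAAACC
Igkv11-125: CACAGTGatacaagtcataACATAAACC
Igkv4-50: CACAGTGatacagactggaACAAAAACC
Igkv12-38: CACAGTGattcaagccatgACATAAACC
Igkj1: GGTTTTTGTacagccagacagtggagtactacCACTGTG
Igkj2: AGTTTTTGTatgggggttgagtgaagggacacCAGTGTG
Igkj3: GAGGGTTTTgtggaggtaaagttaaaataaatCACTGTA

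The heptamer CACAGTG, searched on the segment's own strand in a window of 30 bases at the end of each annotated V segment, was present at 89 of 102 V genes (87.3%) and at 23 of 74 V pseudogenes (31.1%). Among V genes it was present at 23 of 26 in the distal section, 29 of 34 in the middle section and 36 of 41 in the proximal section. The same letters were found, on either strand, in 0.629% of the windows of 30 bases along chromosome 6. Between Igkj5 and Igkc lies the intronic enhancer, known for a site bound by NF-kappaB. The motif GGGACTTTCC had 1 match on either strand in the 2507 bases between Igkj5 and Igkc, in the window chr6:70725730-70725789 (plus strand, the match in capitals). Along chromosome 6 it was found in 0.0094% of windows of 60 bases. The stretch of 2507 bases searched is far longer than 1 such window, so this share is not a background for it.
kappaB site: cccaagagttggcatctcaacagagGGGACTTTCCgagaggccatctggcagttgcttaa

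Read pairs per library were 58335904 and 57259415 in Erg KO, 62155453 and 68085468 in CreT control and 43924865 and 29014581 in Erg fl/fl control libraries, and within the Igk locus, pairs of a bin with itself left out, 8476 to 12800 remained per library. The share of read pairs between chromosomes was 32.3% and 34.6% in Erg KO libraries, against 24.7% and 26.8% in CreT control and 24.3% and 21.6% in Erg fl/fl control libraries, so it moved with the groups, and its part in the results was not tested. Erg fl/fl replicate 2 was the shallowest library and stood apart from the other 3 controls in compartment score. The share of read pairs on chromosome X fitted the labelled sex of all 6 libraries.

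The contacts of the Igkc end with the V array were lower in Erg KO cells than in the controls. The summed read pairs between the Igkc end and all V bins were 431 and 392 in Erg KO libraries, against 777 and 700 in CreT control and 701 and 697 in Erg fl/fl control libraries. Both Erg KO libraries were thus below all 4 controls, including the shallowest of the 6 libraries, Erg fl/fl replicate 2. Of the 30 pairs of the Igkc end with a V bin that were tested, 12 fell and 0 rose against both controls together, while 6.47% of all tested pairs were lower and 6.38% higher. The test was edgeR's quasi-likelihood test with group and sex as terms, and a call needed a Benjamini-Hochberg adjusted p below 0.05 over all pairs tested. At an unadjusted p below 0.05, 20 of the 30 were lower and 0 higher by edgeR, and 12 were lower and 0 higher by DESeq2. The median log2 fold change over the 30 pairs was −1.0, with a range of −2.13 to 0.05 and 28 of 30 below 0. Over all tested pairs the median was −0.01. At the same distances, 1 to 32 bins apart, 6.82% of 390226 autosomal pairs were lower, and both Erg KO libraries lay below all 4 controls in 15.6% of them, against 60% (18 of 30) of the pairs of the Igkc end with V bins. The 30 pairs share the Igkc-end bin and are not independent of each other. After adjustment DESeq2 called 0 of the 30 (it gave only 1 of them an adjusted p, and again called 0 with no independent filtering). With group alone as a term edgeR called 6, while 3.10% of all tested pairs were lower. Leaving out either Erg KO replicate left 0 calls here and over all tested pairs, and without Erg fl/fl replicate 2, 0 of the 30 and 1.82% of all pairs were lower.

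The falls were spread over all 3 sections of the V array. In the distal section 3 of 10 pairs with the Igkc end fell (median log2 fold change −1.02), in the middle section 4 of 10 (median −1.04) and in the proximal section 5 of 10 (median −0.82). The 4 tested pairs with the flank beyond the V end held no call (median −0.81), as did the 5 with the flank beside the Igkc end (median 0.13). Of these 5, 2 had a log2 fold change below 0.

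Igkv9-129 to Igkv14-126, in a distal bin 2.9 Mb from the Igkc end (chr6:67800263-67899573), had normalised counts of 4.3 and 4.4 with the Igkc end in Erg KO, against 10.3 and 15.3 in CreT control and 19.9 and 29.5 in Erg fl/fl control libraries. This pair, like the others named first, was chosen for its small p, which favours groups that do not overlap. The groups did not overlap, and the log2 fold change was −2.13 ± 0.48 (SE; 4.37-fold lower, adjusted p = 0.00052 by edgeR), from 4 raw read pairs in each Erg KO library and 13 to 23 in each control. The neighbouring bin with Igkv11-125 to Igkv9-123, 2.8 Mb away, had 3.2 and 4.3 in Erg KO, against 9.5 and 7.2 in CreT control and 10.6 and 27.3 in Erg fl/fl control libraries. Here too no control was as low as an Erg KO library, with a log2 fold change of −2.04 ± 0.54 (SE; adjusted p = 0.0039 by edgeR). It was not called against the CreT control alone (log2 −1.81, adjusted p = 0.08) and was against the Erg fl/fl control (log2 −2.28, adjusted p = 0.0018).

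In the proximal section, the bin with Igkv4-50 to Igkv5-45, 1.0 Mb from the Igkc end (chr6:69700345-69800004), had the smallest p of all Igk pairs. Its normalised counts were 8.5 and 4.4 in Erg KO, against 24.5 and 16.9 in CreT control and 22.8 and 31.1 in Erg fl/fl control libraries, 3.66-fold lower (log2 −1.87 ± 0.41, SE, adjusted p = 0.00033 by edgeR). It was lower against the CreT control (log2 −1.73, adjusted p = 0.01) and the Erg fl/fl control (log2 −2.02, adjusted p = 0.00048). The bin with Igkv5-39 to Igkv18-36, 0.8 Mb away, had 11.6 and 9.9 in Erg KO, against 17.4 and 22.4 in CreT control and 35.2 and 39.4 in Erg fl/fl control libraries (log2 −1.34 ± 0.34, SE, adjusted p = 0.003 by edgeR). The Erg KO values of this pair were the lowest, the CreT values lay between, and the Erg fl/fl values were the highest.

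The other 8 called pairs of the Igkc end had adjusted p of 0.0073 to 0.048 (edgeR). The 4 pairs that follow were picked after their values were seen. Of the called ones, these were the middle bin with Igkv4-62 to Igkv4-60 (3.2 and 6.5 in Erg KO, against 12.7 and 5.6 in CreT control and 13.8 and 19.5 in Erg fl/fl control libraries, log2 −1.50, adjusted p = 0.031 by edgeR), where CreT replicate 2 lay below Erg KO replicate 2, and the proximal bin with Igkv6-15 to Igkv3-12-1, 0.3 Mb away (32.5 and 24.9 in Erg KO, against 43.4 and 46.2 in CreT control and 39.2 and 63.4 in Erg fl/fl control libraries, log2 −0.78, adjusted p = 0.016 by edgeR), where the groups did not overlap. The bin next to the Igkc end, with Igkv3-7 to Igkv3-2, had 97.2 and 100.4 in Erg KO, against 96.6 and 91.2 in CreT control and 104.1 and 100.9 in Erg fl/fl control libraries. This adjacent pair had a log2 fold change of 0.01 ± 0.14 (SE) and its groups overlapped. The bin with Igkv10-96 and Igkv10-95, 2.1 Mb away, had the highest log2 fold change of the 30, 0.05, which did not pass.

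**Figure D1:**
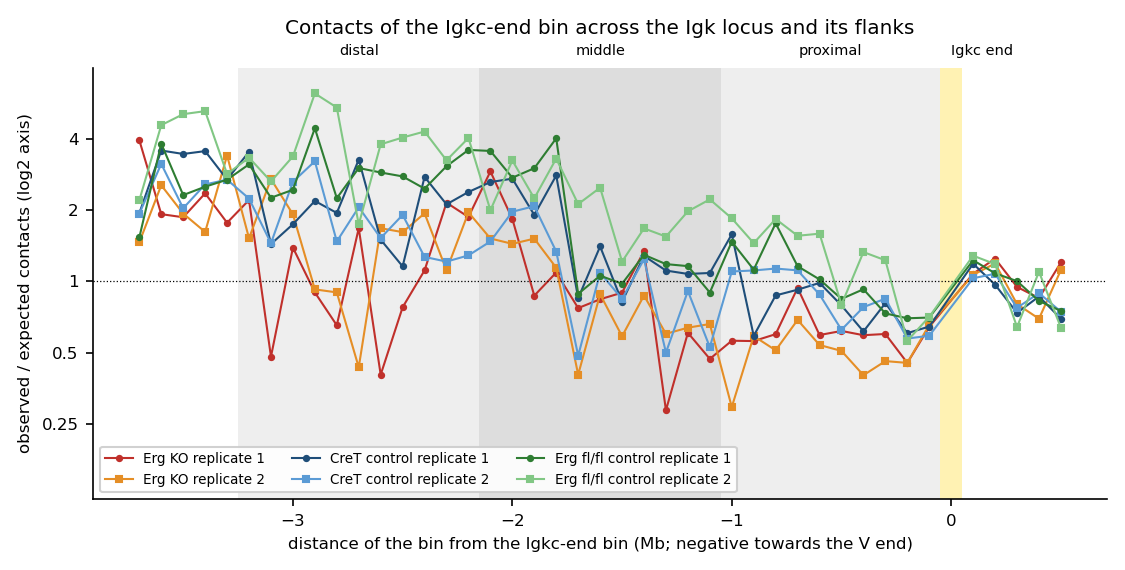
Observed over expected contacts of the Igkc-end bin (log2 vertical axis) against the distance of the other bin from it in Mb, 1 line per library, with the V sections shaded and the Igkc end in yellow. In 17 of the 32 V bins both Erg KO libraries lie below all 4 controls, 4 of 11 distal, 5 of 11 middle and 8 of 10 proximal. They do so in 3 of the 5 bins of the V-end flank and in none of the 5 bins of the flank at the Igkc end. The share over the autosomes is not given for this measure.

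Contacts were also set against those expected at the same distance over the autosomes of the same library, which removes each library's own distance decay. Between the Igkc end and the distal section the observed over expected ratio was 1.26 and 1.52 in Erg KO, against 2.18 and 1.80 in CreT control and 2.95 and 3.85 in Erg fl/fl control libraries. For the middle section it was 0.974 and 0.870 in Erg KO, against 1.49 and 1.04 in CreT control and 1.69 and 2.12 in Erg fl/fl control libraries. For the proximal section it was 0.603 and 0.541 in Erg KO, against 0.739 and 0.735 in CreT control and 0.868 and 1.06 in Erg fl/fl control libraries. In each section both Erg KO libraries were below all 4 controls, with mean log2 differences of −0.91, −0.74 and −0.56, and the ratio was above 1 in all 6 libraries only for the distal section. With 2 libraries against 4 the exact two-sided permutation test has 15 splits and cannot give a p below 0.0667, so no value of this kind could pass 0.05. Its p was 0.1333 for each of the 3 sections (adjusted p = 0.267 over 26 sets of pairs). Without Erg fl/fl replicate 2 the differences were −0.71, −0.58 and −0.45.

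The CreT control lay between the other groups: mean ratios for the distal section were 1.39 ± 0.18 in Erg KO (SD, n = 2), 1.99 in CreT control and 3.40 in Erg fl/fl control libraries. The log2 difference of Erg KO from CreT was −0.52 and from Erg fl/fl −1.29, and that of CreT from Erg fl/fl was −0.77. Divided by the ratio among V bins of the same library, the ratio of the Igkc end with V bins was 1.15 and 1.20 in Erg KO, against 1.58 and 1.61 in CreT control and 1.78 and 2.04 in Erg fl/fl control libraries. This normalisation to the V array itself kept the groups apart, with a log2 difference of −0.57 and p = 0.0667 in the exact two-sided permutation test, the smallest it can give. With the flank at the Igkc end, the ratio of the Igkc end was 1.08 and 1.02 in Erg KO, against 0.986 and 0.961 in CreT control and 1.07 and 1.06 in Erg fl/fl control libraries, and the groups overlapped (log2 difference 0.04, p = 0.467, exact permutation test). With the V-end flank it was 2.35 and 2.21 in Erg KO, against 3.05 and 2.48 in CreT control and 2.58 and 4.01 in Erg fl/fl control libraries. There both Erg KO libraries were below every control (log2 difference −0.38, p = 0.1333, exact permutation test), so the lower contacts did not end with the V array.

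**Figure D2:**
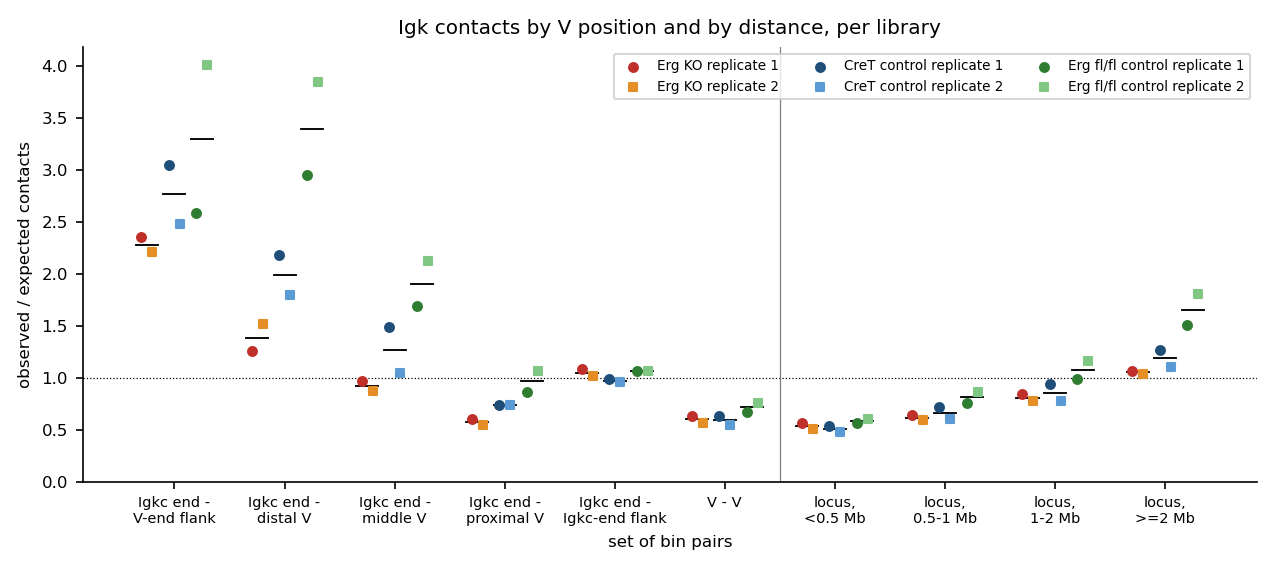
Observed over expected contacts (vertical axis, starting at 0) for sets of Igk bin pairs by V position (left) and by distance within the locus (right), 1 point per library and a bar at each group's mean. The Erg KO libraries lie lowest for the Igkc end with the V-end flank (2.35 and 2.21) and with the distal (1.26 and 1.52), middle and proximal V sections. They also lie lowest at 2 Mb or more, and overlap the controls among V bins.

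In the edgeR fit used up to here, pairs across the whole locus were called no more often than over all tested pairs. The exception was the share of falls against the Erg fl/fl control, which was about equal to it. Against both controls 23 of 454 pairs fell (5.07%, with 6.47% over all pairs) and 18 rose (3.96%, with 6.38%), and the median log2 fold change was −0.13. Without either Erg KO library no pair of the locus and none of all 431401 was called, so these fits say nothing particular to Igk. Without CreT replicate 1, 11 fell and 10 rose (4.0% and 3.79% over all pairs), and without Erg fl/fl replicate 2, 0 fell and 5 rose (1.82% and 2.29%). Against the CreT control 4 pairs fell (0.881%, with 3.55% over all pairs) and 14 rose (3.08%, with 3.73%), with a median of 0.00 to 2 decimals. Against the Erg fl/fl control 25 fell (5.51%, with 5.43% over all pairs) and 8 rose (1.76%, with 4.08%), with a median of −0.28. These 3 comparisons share the Erg KO libraries. Between CreT and Erg fl/fl control 0 of 454 pairs were called by edgeR (0.000232% of all tested pairs, 1 pair) and 0 by DESeq2. At an unadjusted p below 0.05 35 were lower and 4 higher by edgeR, and the median was −0.22. Of the 30 pairs of the Igkc end with V bins, 2 fell against CreT (median −0.78) and 14 against Erg fl/fl (median −1.14), while between the controls 0 were called (6 lower and 0 higher unadjusted by edgeR, 0 by DESeq2, median −0.39). All 30 log2 fold changes of CreT over Erg fl/fl control at the Igkc end were below 0. The locus shares depended on the offsets. With GC content added to them, 40 of the 454 pairs fell against both controls, with 0.995% of all tested pairs lower. In that fit 33 of the 423 tested pairs among V bins fell and 0 rose (median log2 fold change −0.44).

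The direction of the calls within the locus differed with distance. Of 33 pairs of a bin with itself 13 rose and 0 fell (median log2 fold change 0.27), while 33.3% of such pairs on the autosomes were higher and 4.45% lower (median 0.17). Under 0.5 Mb 5 of 122 rose and 3 fell (median 0.04, with 12.6% higher and 11.5% lower on the autosomes). From 0.5 to 1 Mb 10 of 128 fell and 0 rose (median −0.25), with 8.54% lower and 4.4% higher on the autosomes. From 1 to 2 Mb 7 of 137 fell and 0 rose (median −0.30), with 4.07% lower and 1.81% higher on the autosomes. At 2 Mb or more 3 of 34 fell and 0 rose (median −0.53), with 1.83% lower and 0.763% higher on the autosomes. In each of these classes falls outnumbered rises over the autosomes too. The share of falls in the locus was thus 7.81% from 0.5 to 1 Mb, 5.11% from 1 to 2 Mb and 8.82% at 2 Mb or more, where all 3 falls belonged to the Igkc end. At 2 Mb or more the observed over expected ratio was 1.07 and 1.04 in Erg KO, against 1.27 and 1.11 in CreT control and 1.51 and 1.80 in Erg fl/fl control libraries (log2 difference −0.41, p = 0.1333, exact permutation test). Under 0.5 Mb it was 0.569 and 0.509 in Erg KO, against 0.532 and 0.475 in CreT control and 0.561 and 0.60 in Erg fl/fl control libraries, below 1 in every library and overlapping between the groups.

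Among V bins 11 of 423 pairs fell (2.6%, with 6.47% over all tested pairs) and 18 rose (4.26%, with 6.38%). Their median log2 fold change was −0.09. Pairs of a distal with a middle bin held 7 of the falls among 93 pairs (7.53%, near the share over all pairs) and no rise (median −0.39). Pairs within the middle section held 10 of the rises and 1 fall among 66 (median 0.11), and pairs within the proximal section 5 rises and 1 fall among 55 (median 0.07). Of the proximal rises 4 were a bin with itself, a class in which 33.3% rose over the autosomes, and 1 was a pair of adjacent bins. No pair of the distal with the proximal section (47 tested) or of the middle with the proximal section (96 tested) was called. Over all V pairs the observed over expected ratio was 0.629 and 0.569 in Erg KO, against 0.634 and 0.545 in CreT control and 0.668 and 0.761 in Erg fl/fl control libraries, so the Erg KO libraries overlapped the controls (log2 difference −0.11, p = 0.467, exact permutation test).

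Of the 18 rises 10 lay within the middle section, in bins with many Igkv4 family segments. Of these 10, 7 were a bin with itself (of 11 such pairs) and 3 were adjacent bins (of 10), and as given above 33.3% of the pairs of a bin with itself rose over the autosomes. The part of this shift at short range in the rises was not tested. The bin with Igkv4-68 to Igkv13-62-1 (chr6:69300335-69400272) had 215.0 and 173.4 normalised pairs with itself in Erg KO, against 147.6 and 143.9 in CreT control and 164.4 and 136.2 in Erg fl/fl control libraries (log2 0.46 ± 0.11, SE, adjusted p = 0.001 by edgeR). With the next bin towards Igkc, Igkv4-62 to Igkv4-60, it had 81.9 and 60 in Erg KO, against 50.6 and 36.6 in CreT control and 47.5 and 33.9 in Erg fl/fl control libraries (log2 0.86 ± 0.19, SE, adjusted p = 0.00065 by edgeR). With the next bin away from Igkc, Igkv4-72 to Igkv4-69, it had 98.8 and 67.5 in Erg KO, against 58.8 and 51.0 in CreT control and 48.8 and 48.2 in Erg fl/fl control libraries (log2 0.78 ± 0.18, SE, adjusted p = 0.00069 by edgeR). The Igkv4-72 to Igkv4-69 bin with itself had 102.8 and 72.2 in Erg KO, against 54.2 and 57.1 in CreT control and 56.2 and 65.3 in Erg fl/fl control libraries (log2 0.66, adjusted p = 0.0034 by edgeR). In all 4 pairs both Erg KO libraries were above every control, which their choice by small p favours. With GC content added to the offsets 0 Igk pairs rose (1.34% of all tested pairs), and DESeq2 called 1 rise (1.32% of all).

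Of the 2 other pairs among the 10 with the smallest p, one joined V bins and one lay in the flank. The distal bin with Igkv14-134-1 to Igkv14-130 and the middle bin with Igkv10-96 and Igkv10-95, 0.9 Mb apart, had 5.3 and 4.4 in Erg KO, against 13.5 and 12 in CreT control and 6.3 and 25.8 in Erg fl/fl control libraries (log2 −1.90 ± 0.50, SE, adjusted p = 0.0038 by edgeR). The Erg fl/fl libraries of this pair differed from each other more than Erg fl/fl replicate 1 did from Erg KO. In the flank, the bin with Foxi3 and Tex37 and the bin with Krcc1, 0.3 Mb apart, had 35.9 and 37.1 in Erg KO, against 46 and 53.5 in CreT control and 76.7 and 89.5 in Erg fl/fl control libraries (log2 −0.85 ± 0.21, SE, adjusted p = 0.0019 by edgeR). Foxi3 is a forkhead transcription factor. This pair was called against Erg fl/fl (log2 −1.18, adjusted p = 6e-05) and not against CreT (log2 −0.53, adjusted p = 0.21), and the difference between the controls was −0.65 (adjusted p = 0.58 by edgeR).

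**Figure D3:**
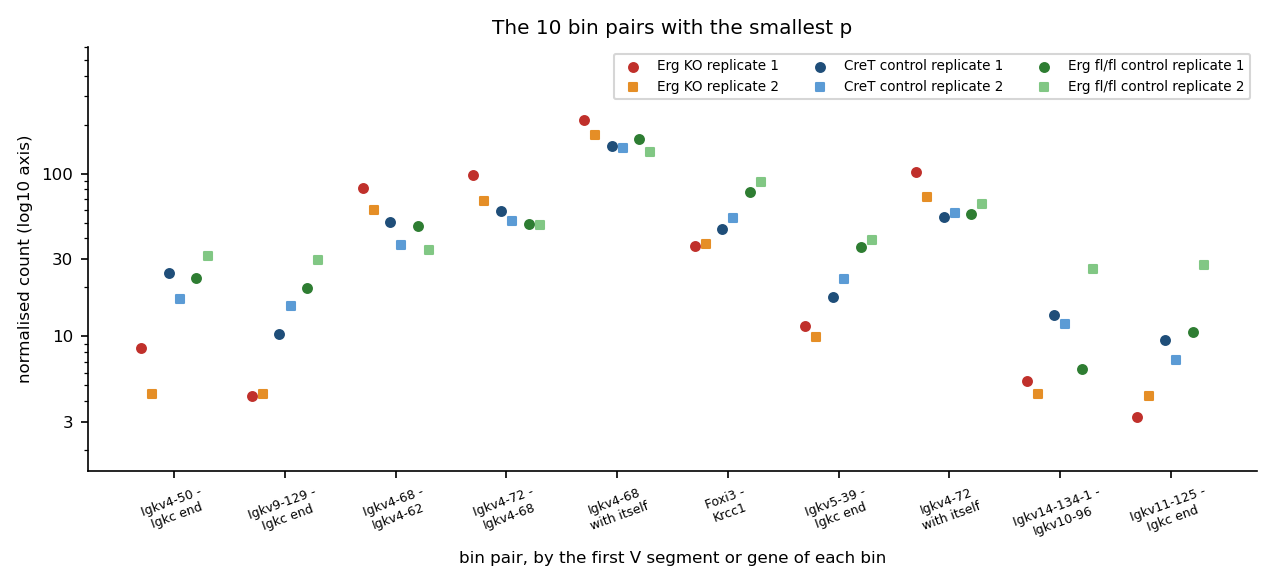
Normalised counts (log10 axis) of the 10 Igk bin pairs with the smallest p in Erg KO against both controls, 1 point per library, with pairs named by the first V segment or gene of each bin. The 4 Igkc-end pairs sit at 3.2 to 11.6 in Erg KO and at 7.2 to 39.4 in the controls. No pair's groups overlap, which follows largely from choosing the pairs by p in these same data.

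**Figure D4:**
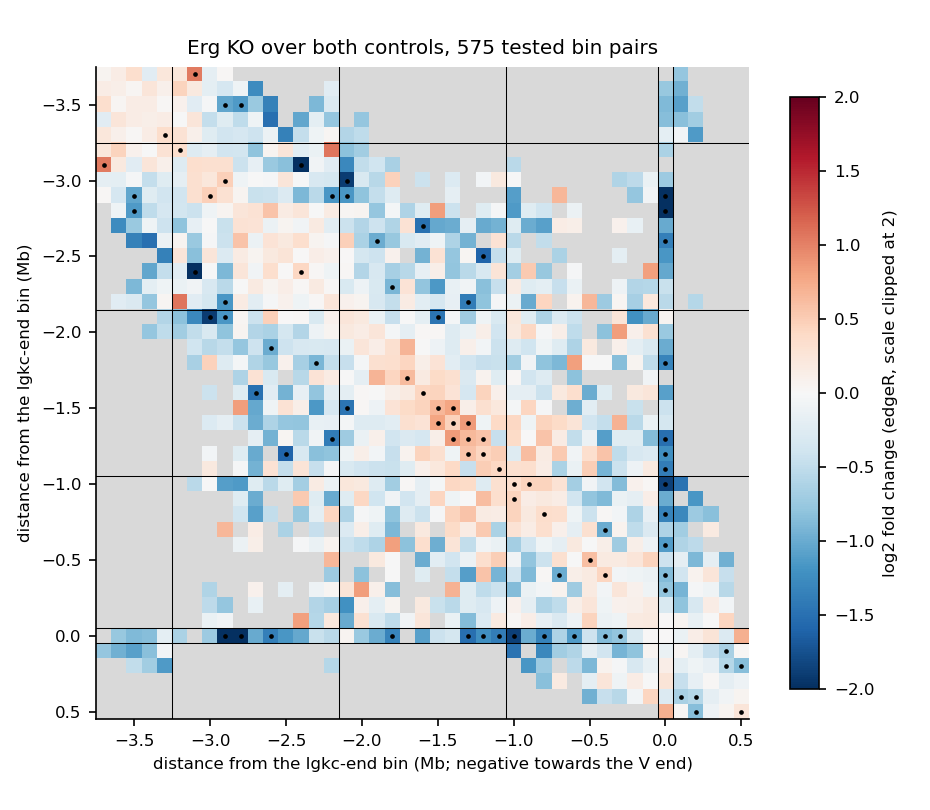
Change in Erg KO relative to the controls (log2) at the tested bin pairs of the locus and its flanks, by distance of both bins from the Igkc-end bin in Mb (grey, not tested; dot, adjusted p below 0.05; colour scale limited at 2). The row and column of the Igkc end at 0 are blue along most of the V array, and 10 of the 18 rises in the locus lie along the diagonal in the middle section.

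Pairs with a flank were lower in part. The V-end flank with the Igkc-end flank had an observed over expected ratio of 1.70 and 1.43 in Erg KO, against 2.06 and 1.86 in CreT control and 2.27 and 2.15 in Erg fl/fl control libraries (log2 difference −0.42, p = 0.0667, exact permutation test). The middle section with the V-end flank had 0.447 and 0.344 in Erg KO, against 0.648 and 0.496 in CreT control and 0.636 and 0.968 in Erg fl/fl control libraries (log2 difference −0.77, p = 0.0667, exact permutation test). The distal section with the Igkc-end flank had 0.802 and 0.825 in Erg KO, against 1.15 and 1.00 in CreT control and 1.21 and 1.47 in Erg fl/fl control libraries (log2 difference −0.55, p = 0.0667, exact permutation test). In these 3 sets both Erg KO libraries were below all controls, and the V-end flank with itself was above them, with 1.27 and 1.22 in Erg KO, against 1.19 and 1.144 in CreT control and 1.16 and 1.09 in Erg fl/fl control libraries. Erg KO was also below all controls in the middle section with the Igkc-end flank (log2 difference −0.55). It was too in the proximal section with the V-end flank, 0.441 and 0.536 against 0.686 to 1.462 in controls. That log2 difference, −0.96, was the largest fall of the 26 sets, beyond the Igkc end with the distal section (−0.91). The distal section with the V-end flank overlapped (−0.13). Falls were thus not confined to the Igkc end. Including the flanks, 28 of 575 pairs fell (4.87%, with 6.47% over all tested pairs) and 21 rose (3.65%, with 6.38%), both below the shares over all pairs.

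For comparison, the heavy chain locus Igh, which is rearranged before Igk, had 82 of 428 tested pairs lower and 0 higher in Erg KO (median log2 fold change −0.46), beside the 6.47% lower and 6.38% higher over all tested pairs. At 2 Mb or more the observed over expected ratio within Igh was 1.11 and 1.18 in Erg KO, against 2.17 and 1.58 in CreT control and 2.22 and 3.21 in Erg fl/fl control libraries. The ratio of Igk over Igh at these distances was 0.963 and 0.878 in Erg KO, against 0.585 and 0.703 in CreT control and 0.678 and 0.562 in Erg fl/fl control libraries. Igk thus lay below Igh in every library, and the ratio was higher in both Erg KO libraries than in every control. Its log2 difference was 0.55 (p = 0.0667, exact two-sided permutation test, the smallest it can give). The drop from the controls at these distances was therefore larger at Igh than at Igk.

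Coverage of the V bins by all contacts, relative to bins at most 2 Mb outside the locus, was higher in Erg KO. The values on record for windows of 1 Mb and 2 Mb were identical, so they do not check the choice of window. In the distal section it was −0.38 and −0.48 on the log2 scale in Erg KO, against −0.59 and −0.63 in CreT control and −0.55 and −0.53 in Erg fl/fl control libraries (difference 0.14), and it differed by 0.18 in the middle and 0.14 in the proximal section (p = 0.0667 each, exact permutation test). The Igkc end differed by 0.01 (p = 0.867, exact permutation test). Joining by deletion removes the DNA between the joined segments. Counted over contacts with other chromosomes only, the differences were 0.03, 0.02 and 0.02 in the 3 V sections and 0.03 at the Igkc end. Against each control alone the sign of these differences varied: over contacts with other chromosomes the V sections differed by 0.101, 0.124 and 0.133 from CreT and by −0.046, −0.094 and −0.099 from Erg fl/fl control. Over all contacts the Igkc end differed by 0.050 from CreT and by −0.028 from Erg fl/fl control. With bin coverage in the offsets 4 of the 30 pairs of the Igkc end with V bins fell in place of 12, and 0.905% of all tested pairs were lower. The part of coverage in the falls was not otherwise tested.

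Insulation was scored for each bin as the log2 ratio of contacts across it, between the 5 bins on either side, to the mean over its chromosome, so that a lower score means fewer contacts across the bin. Within the locus 21 of 33 bins fell and 0 rose in Erg KO (limma with group and sex, adjusted over all bins), with 26.6% of all bins lower and 39.2% higher. The median difference was −0.30 within the locus and 0.08 over all bins. The falls were 9 of 11 bins in the distal, 3 of 11 in the middle and 8 of 10 in the proximal section, and the Igkc end (−1.33 and −1.19 in Erg KO, against −1.15 and −1.16 in CreT control and −0.99 and −0.76 in Erg fl/fl control libraries, adjusted p = 0.0071 by limma). Fewer bins fell without Erg KO replicate 2 or without Erg fl/fl replicate 2, fits for which the share over all bins is not given. In the V-end flank 2 bins rose, among them the bin with Serbp1, and in the Igkc-end flank 4 fell.

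The 3 largest falls were in the bins with Igkv3-7 to Igkv3-2 (difference −0.53, adjusted p = 0.0015), Igkv14-134-1 to Igkv14-130 (−0.49, adjusted p = 0.0068) and Igkv6-25 to Igkv8-22 (−0.48, adjusted p = 0.0035, by limma). The bin with Igkv3-7 to Igkv3-2, next to the Igkc end, scored −1.18 and −1.19 in Erg KO, against −0.87 and −0.85 in CreT control and −0.71 and −0.34 in Erg fl/fl control libraries, with no overlap. The highest differences, which did not pass, were 0.06 in the bin with Igkv4-50 to Igkv5-45 and 0.05 in that with Igkv13-55-1 to Igkv4-51, followed by 0.00 in that with Igkv4-58 to Igkv4-56, all 3 at the border of the middle and proximal sections. Averaged over the locus the score was −0.82 and −0.85 in Erg KO, against −0.57 and −0.84 in CreT control and −0.54 and −0.29 in Erg fl/fl control libraries, so CreT replicate 2 lay within the Erg KO range (difference −0.27, p = 0.267, exact permutation test). Against the CreT control 4 bins fell and against the Erg fl/fl control 26, and between the controls 0 were called (0.0% of all bins, with 5 of the 33 lower and 0 higher unadjusted, limma).

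The compartment score, the component of each chromosome's contact map that best followed gene density, scaled to an SD of 1, is positive in bins that group with gene-rich, active chromatin. The V array scored below 0 in most bins and the Igkc end above 0 in every library. In Erg KO 4 of 33 bins fell and 0 rose (limma with group and sex), with 2.03% of all bins lower and 1.28% higher, all 4 at the ends of the locus. At the V end the bin with Igkv2-137 and Igkv1-136 scored −0.44 and −0.05 in Erg KO, against 0.26 and 0.23 in CreT control and −0.06 and 0.21 in Erg fl/fl control libraries (difference −0.48, adjusted p = 0.044 by limma), with a small overlap. The bin with Igkv1-135 scored −0.84 and −0.56 in Erg KO, against −0.20 and −0.26 in CreT control and −0.47 and −0.03 in Erg fl/fl control libraries (difference −0.55, adjusted p = 0.044 by limma). At the other end the bin with Igkv3-7 to Igkv3-2 scored −0.12 and 0.11 in Erg KO, against 0.29 and 0.29 in CreT control and 0.23 and 0.56 in Erg fl/fl control libraries (difference −0.41, adjusted p = 0.044 by limma). The Igkc end scored 0.37 and 0.53 in Erg KO, against 0.64 and 0.65 in CreT control and 0.57 and 0.80 in Erg fl/fl control libraries (difference −0.27, adjusted p = 0.045 by limma). In 3 of these 4 bins both Erg KO libraries were below every control. Without adjustment 11 of the 33 bins were lower and 0 higher.

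Erg fl/fl replicate 2 stood apart across the V array: the mean over the locus was −1.06 and −1.04 in Erg KO, against −0.90 and −0.98 in CreT control and −0.93 and −0.39 in Erg fl/fl control libraries (difference −0.26, p = 0.267, exact permutation test). The bin with Igkv14-134-1 to Igkv14-130, among the 3 with the largest falls, did not pass (difference −0.50, adjusted p = 0.089 by limma). The smallest differences were −0.15 in the bin with Igkv4-68 to Igkv13-62-1 and −0.17 in those with Igkv4-62 to Igkv4-60 and Igkv13-55-1 to Igkv4-51, in the middle section, whose mean was −1.22 and −1.26 in Erg KO, against −1.19 and −1.26 in CreT control and −1.18 and −0.66 in Erg fl/fl control libraries. The 4 calls were lost when sex was left out of the fit and without either CreT library. Leaving out other libraries also moved the count of lower bins. Such fits keep a single library in a group, and their shares over all bins are not given, so their counts say nothing particular to Igk. Against either control alone 0 of the 33 bins were called (6 lower against CreT and 15 lower against Erg fl/fl unadjusted, 0 higher in both), and between the controls 0 (0.0% of all bins, 0 lower and 2 higher of the 33 unadjusted, limma).

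**Figure D5:**
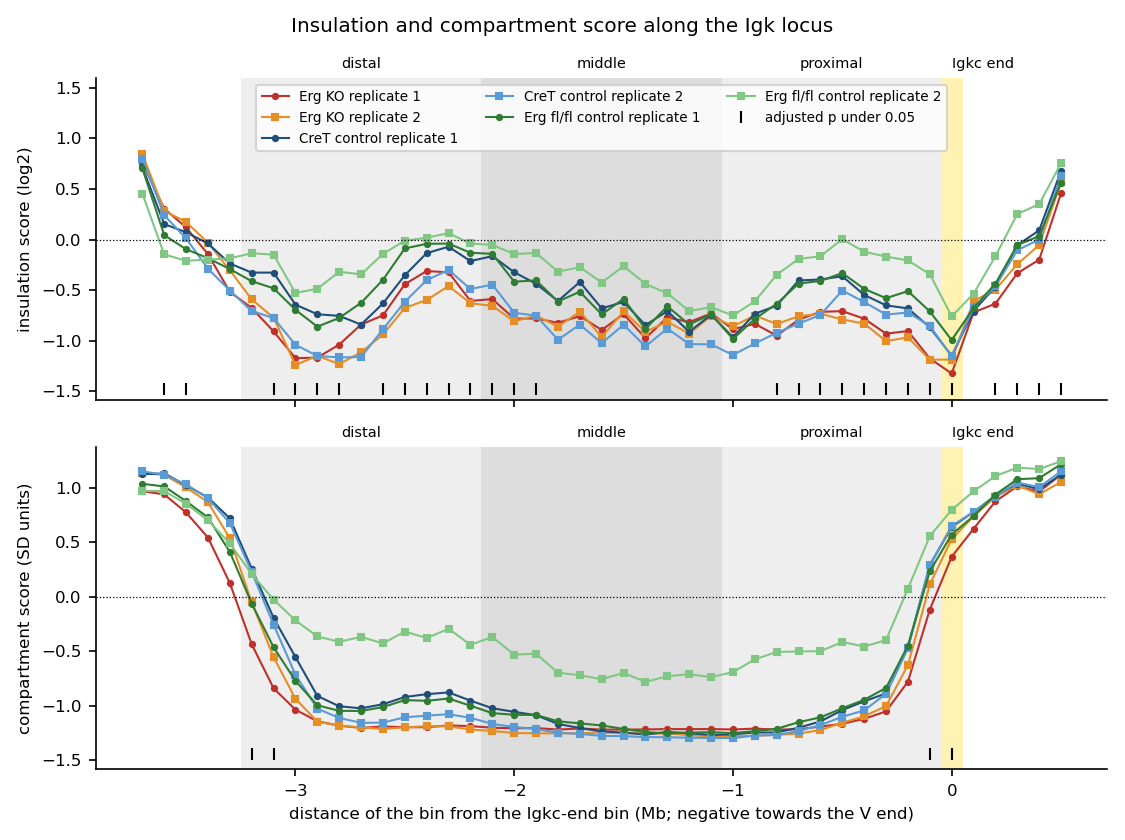
Insulation score (top, log2) and compartment score (bottom, in SD units) of each bin against its distance from the Igkc-end bin in Mb, 1 line per library, with V sections shaded and a tick under each bin with an adjusted p below 0.05. The Erg KO lines run low in insulation in the distal and proximal sections, CreT replicate 2 beside them in the distal section, and Erg fl/fl replicate 2 (mean −0.39) lies above the rest in compartment score.

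Genes known to act in light chain rearrangement were read at their own bins elsewhere in the genome, from a list of 24 regulators of which 23 had scores. In compartment score 0 fell and 2 rose (over all bins, 2.03% were lower and 1.28% higher). Rela, the NF-kappaB subunit p65, differed by 0.24 (adjusted p = 0.045) and Wapl, which releases cohesin from chromatin, by 0.20 (adjusted p = 0.048, limma). In insulation 15 genes in 14 bins fell and 1 rose, while 26.6% of all bins were lower and 39.2% higher. The rise was at Rad21, a cohesin subunit (difference 0.25, adjusted p = 0.017 by limma). Rag1 and Rag2 share a bin, which fell by 0.20 (adjusted p = 0.049 by limma). Falls were also found at Ctcf, the protein that halts cohesin (−0.60), and at Pax5, the B-lineage commitment factor (−0.72, adjusted p = 0.00058 each by limma). The largest fall of the list was at Irf8 (−0.89, adjusted p = 0.00058 by limma), and the other genes that fell are not named. Irf4, which with Spi1 or Spib acts on the kappa enhancers, differed by −0.17 (adjusted p = 0.059) and Ebf1 by 0.10 (adjusted p = 0.24, limma).

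Hi-C holds no expression, so other cell types could be read only from the compartment score at their marker genes. The counts that follow stand beside the same shares over all bins, 26.6% lower and 39.2% higher in insulation and 2.03% and 1.28% in compartment score. In the B-lineage list 0 of 10 genes were called in compartment score, and 8 genes in 7 bins fell in insulation. Of 12 stromal genes, a list of the OP9 feeder's kind, 1 rose in compartment score (Col1a2, difference 0.28, adjusted p = 0.045 by limma), and 3 fell and 6 rose in insulation. The list's median compartment score was 0.43 and 0.00 in Erg KO, against −0.18 and −0.15 in CreT control and 0.12 and 0.15 in Erg fl/fl control libraries, highest in Erg KO replicate 1, and above 0 in 9, 6, 5, 5, 8 and 8 of the 12 genes in these libraries. The part of feeder cells in the Igk values was not tested. Of the T-lineage and the myeloid lists, 6 genes each, 0 were called in compartment score and 5 each fell in insulation.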

How the data were processed

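In situ Hi-C libraries were aligned by the authors to mm10 with diffHic and bowtie2, freed of duplicates and dangling ends, and deposited as raw counts of read pairs per pair of bins of about 100 kb. The study gives larger totals of valid read pairs than the deposited counts sum to; the difference was not resolved here. After the study's methods, autosomal bin pairs with a summed count of at least 10 and an abundance over 5 times the level between chromosomes were tested with loess offsets and edgeR 4.0.16 (quasi-likelihood, group and sex as terms), adjusted over all pairs at 0.05. ENCODE-listed regions were not used here; 23651 of 24067 autosomal bins were kept by coverage. Insulation and compartment scores were fitted over all bins with limma 3.58.1. Values per library were compared by exact permutation tests of 2 against 4 libraries, two-sided. Scripts were tested on simulated data. Replicates were biological duplicates per the study's methods. V segments and genes came from GENCODE M21. The bin pairs, sections and gene lists (regulators of light chain rearrangement, B-lineage, stromal, T-lineage and myeloid markers) were chosen with earlier results of these data known. Named were the 10 pairs with the smallest p, the 3 bins with the largest change in each direction and every bin called in compartment score. Other bins called in insulation are given by count, apart from the Igkc end and the bin with Serbp1. Regulators that fell in insulation are named only in part. Other named pairs are marked where they stand. Alternatives were TMM scaling, bin coverage, GC content, a count minimum, DESeq2 1.42.0, the covariates and leaving out each library.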

Additional observations from a re-analysis of the deposited data

Results flagged for a closer look

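In compartment score, Erg fl/fl replicate 2 lay far from the other 3 controls. Its mean was −0.393 over the locus, against −1.06 and −1.04 in Erg KO and −0.90 to −0.98 in the other controls. In the middle section it was −0.661 and in the proximal section −0.343. These were 3 of 40 sets of the 4 controls examined for a library far from the rest, and chance alone marks about 1 in 20. The part of this library's depth, the lowest of the 6, was not tested.

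Set within each sex, 1 Erg KO library against 1 Erg fl/fl library, 3 of 26 sets of pairs moved in opposite directions, and the difference between the sexes was not tested. For pairs under 0.5 Mb the log2 difference was 0.021 in females and −0.237 in males, 0.259 apart. For the Igkc end with its flank it was 0.017 in females and −0.066 in males, 0.083 apart. For pairs within the middle section it was 0.114 in females and −0.219 in males, 0.333 apart. The male control of these comparisons was Erg fl/fl replicate 2. The Igkc end with V sections was lower in both sexes, with log2 differences for the distal section of −1.233 in females and −1.343 in males.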

How the results depend on the processing

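Most choices moved the counts of called Igk pairs. For Erg KO against both controls, lower and higher pairs were 5 and 12 with bin coverage in the offsets (0.905% and 0.455% of all tested pairs), 40 and 0 with GC content in the offsets (0.995% and 1.34%), 12 and 12 with a count of at least 20 and no abundance filter (1.57% and 1.39%), 10 and 5 with group alone (3.10% and 2.97%), and 23 and 5 without pairs of a bin with itself. The balance of lower to higher Igk pairs thus turned with bin coverage. DESeq2 gave 0 and 1, with an adjusted p for only 62 of the 454 pairs and for 1 of the 30 pairs of the Igkc end with V bins, and 0 and 0 with no independent filtering, an alternative chosen after seeing the data. The Igkc end with V bins then had 4 lower pairs with bin coverage, 7 with GC content, 0 with DESeq2 in either form and 6 with group alone. Against CreT the counts were 6 higher without self pairs. With bin coverage they were 0 and 0 (0.0888% and 0.0482% of all tested pairs). With GC content 0 were higher (0.613%), and at the count of at least 20, 6 were higher (0.765%). DESeq2 in either form gave 0 and 0, also over all tested pairs. Group alone gave 1 and 0 (0.564% and 0.571%). Against Erg fl/fl 2 were higher without self pairs. The counts were 39 and 15 with TMM scaling (5.05% and 5.17% of all tested pairs). With bin coverage they were 7 and 14 (1.51% and 0.589%), and with GC content 46 and 0 (1.15% and 0.763%). At the count of at least 20 they were 16 and 4 (1.37% and 0.837%). DESeq2 in either form gave 0 and 0 (0.0116% and 0.00649%), and group alone 15 and 2 (3.37% and 2.09%). The cause was not tested.

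The replicate numbers did not pair the samples: deviations from group means correlated at −0.006 between Erg KO and CreT, 0.072 between Erg KO and Erg fl/fl and −0.072 between the controls. With the replicate number as a block in place of sex, 11 pairs were lower and 6 higher against both controls (3.22% and 3.04% of all tested pairs). Of the lower ones, 6 were at the Igkc end with V bins. The counts were 1 and 0 against CreT (0.637% and 0.584%) and 16 and 4 against Erg fl/fl (3.54% and 2.27%). In compartment score 0 bins were lower, and the share over all bins is not given.

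Observed over expected differences changed sign under 0.5 Mb (0.032) and for the middle with the proximal section (0.005) with coverage-corrected counts, and for the Igkc end with its flank (−0.039) and within the middle section (−0.034) with chromosome 6 as the expectation. Insulation had 10 lower bins with group alone. Compartment score had 0 lower bins with group alone and 14 without smoothing. The shares over all bins in these fits are not given, so their counts say nothing particular to Igk.

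Leaving out each library in turn gave 0 to 25 lower and 0 to 14 higher pairs against both controls, 0 to 11 lower at the Igkc end with V bins, 0 to 3 and 0 to 12 against CreT, and 0 to 22 and 0 to 4 against Erg fl/fl, with 0 in each of these, and over all tested pairs, without either Erg KO library. Against CreT 0 were lower and 2 higher without CreT replicate 1, 1 higher without CreT replicate 2, and 0 lower without either Erg fl/fl library. Against Erg fl/fl 15 were lower and 0 higher without Erg fl/fl replicate 1, 1 and 1 without Erg fl/fl replicate 2, and 4 higher without either CreT library. Without Erg fl/fl replicate 2, 0 pairs were lower and 5 higher against both controls, and 0 of the 30 at the Igkc end. Lower bins were 13 to 28 in insulation (mean difference −0.48 to −0.191) and 0 to 33 in compartment score (−0.646 to −0.131). Ratios ranged from −0.086 to 0.076 under 0.5 Mb, −0.003 to 0.085 for the Igkc end with its flank, −0.16 to 0.028 within the distal, −0.072 to 0.163 within the middle and −0.129 to 0.01 within the proximal section, −0.097 to 0.032 between the last 2 and −0.004 to 0.042 for coverage of the Igkc end. The ratios of the Igkc end with the 3 V sections stayed below 0 without any single library. The counts of called pairs and bins above come from fits that keep a single library in a group. Their shares over all tested pairs and bins are given only in part, so these counts say nothing particular to Igk. Depth limits single pairs: those of the Igkc end with V bins held as few as 2 read pairs in a library.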

Other observations

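The share of same-chromosome read pairs of the V array by distance also differed. Of the read pairs within the locus between different bins, those under 0.5 Mb made up 58.66% and 58.12% in Erg KO, against 51.93% and 55.32% in CreT control and 51.47% and 43.78% in Erg fl/fl control libraries. Those from 2 to 3.3 Mb made up 5.5% and 5.89% in Erg KO, against 6.66% and 6.41% in CreT control and 7.18% and 8.90% in Erg fl/fl control libraries. In both classes the Erg KO libraries lay outside the range of the controls. Among autosomal read pairs between different bins up to 3.3 Mb apart, those under 0.5 Mb made up 54.18% and 54.5% in Erg KO, against 52.08% and 54.06% in CreT control and 52.28% and 46.53% in Erg fl/fl control libraries, so the Erg KO libraries were above every control over the autosomes too. Those from 2 to 3.3 Mb made up 10.82% and 10.82% in Erg KO, against 11.17% and 10.74% in CreT control and 10.74% and 12.34% in Erg fl/fl control libraries, and overlapped. As a share of all autosomal same-chromosome pairs between different bins, at any distance, both classes were below every control in Erg KO, with 4.78% and 4.74% at 2 to 3.3 Mb, against 5.36% and 5.0% in CreT control and 5.55% and 6.77% in Erg fl/fl control libraries.

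The T-cell receptor beta locus on the same chromosome had 8 of 36 tested pairs higher and 0 lower in Erg KO. Of these 8, 7 were among its 8 pairs of a bin with itself and 1 among its 22 pairs under 0.5 Mb, classes in which 33.3% and 12.6% were higher over the autosomes. Its observed over expected ratio was 1.15 and 1.15 in Erg KO, against 1.010 and 1.007 in CreT control and 1.06 and 0.951 in Erg fl/fl control libraries (log2 difference 0.19, p = 0.0667, exact two-sided permutation test).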
